A study of Homo sapiens with 2 samples.

Results

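The expression of 36 genes of cholesterol synthesis, uptake, storage, export and control was followed in SK-ES1, a line of Ewing sarcoma cells, a tumour of bone and soft tissue driven by a fusion of EWSR1 with FLI1. The genes were chosen by name, as pathway members, with earlier results of these data known. Each was matched by its symbol to the array's probes: 34 were matched and 33 were detected, of 10189 genes detected in all. The samples were radiation-adapted SK-ES1 cells, whose label carries the value 4 Gy, and wild type SK-ES1 cells, each with 1 array of total RNA on an Illumina expression BeadChip. The labels give neither the number or timing of doses, nor passage, medium or serum, nor whether the adapted line was a clone. With 1 array a group there is no replicate, so no difference here has an error between cultures and no p-value compares the lines; adaptation cannot be told apart from the state of either culture at harvest.

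Cholesterol is built from acetyl-CoA through mevalonate, farnesyl diphosphate, squalene and lanosterol. The transcription factors SREBF1 and SREBF2 set the rate: their precursors sit in the endoplasmic reticulum with the escort SCAP, which INSIG1 and INSIG2 hold back when sterol is plentiful. When sterol is scarce, SCAP takes the precursors to the Golgi, where the proteases MBTPS1 and MBTPS2 release the active factors, which switch on the enzymes and INSIG1 itself. The liver X receptors NR1H2 and NR1H3 sense oxidised sterols and switch on export, SREBF1 and MYLIP, a ligase that marks lipoprotein receptors for destruction.

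A gene counted as detected when the detection p-value of its brightest probe, against the array's own negative controls, was under 0.01 on at least 1 array. Signals are given below as deposited, as average bead brightness before background subtraction. The median over all 47323 probes was 139 in radiation-adapted cells and 137 in wild type cells, so values below about 200 are dim. A log2 ratio is the normalized log2 signal of radiation-adapted cells minus that of wild type cells after background correction and quantile normalization. It can therefore be larger or smaller than the quotient of the deposited signals, and for MBTPS2 it has the other sign. Of 9 Ewing sarcoma markers with a probe, 9 were detected on each array, against 0 of 4 endothelial, 1 of 4 hepatocyte, 1 of 5 epithelial and 3 of 6 fibroblast markers. Of 5 leukocyte markers with a probe, 1 was detected in radiation-adapted cells and 2 in wild type cells. The summed signal of the 6 fibroblast markers was 2916 in radiation-adapted cells and 2330 in wild type cells. Of the 3 detected, COL1A2 had a signal of 1478 in radiation-adapted cells and 732 in wild type cells, COL3A1 439 in radiation-adapted cells and 386 in wild type cells, and DCN 580 in radiation-adapted cells and 795 in wild type cells. The part of these markers in the results was not tested.

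The sequences upstream of the genes are shown first, since the enzyme genes are known as common SREBP targets. At such promoters a sterol element is often accompanied by a CCAAT box, the site of the factor NF-Y. The windows below run from 250 bases before to 50 after the gene start, 5′ to 3′ on the gene's strand, from RefSeq on GRCh38.p14. The set holds the 3 enzyme genes with the largest ratios (HMGCS1, DHCR7 and MSMO1), the feedback gene INSIG1, MVK as an enzyme gene with a small ratio, and SREBF2. Capitals mark CCAAT on either strand (ATTGG when read on the other) and, in SREBF2, the sterol element core TCACNCCAC. HMGCS1 lies at chr5:43313363-43313662 on the minus strand, DHCR7 at chr11:71448344-71448643 on the minus strand, MSMO1 at chr4:165327419-165327718 on the plus strand, INSIG1 at chr7:155297628-155297927 on the plus strand, MVK at chr12:109573544-109573843 on the plus strand and SREBF2 at chr22:41832855-41833154 on the plus strand.
HMGCS1: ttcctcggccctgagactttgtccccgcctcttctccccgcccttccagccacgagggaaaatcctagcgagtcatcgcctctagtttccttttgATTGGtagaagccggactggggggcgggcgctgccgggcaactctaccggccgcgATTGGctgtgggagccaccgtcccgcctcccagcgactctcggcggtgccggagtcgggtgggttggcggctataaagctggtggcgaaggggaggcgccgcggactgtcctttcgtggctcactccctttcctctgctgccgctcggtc
DHCR7: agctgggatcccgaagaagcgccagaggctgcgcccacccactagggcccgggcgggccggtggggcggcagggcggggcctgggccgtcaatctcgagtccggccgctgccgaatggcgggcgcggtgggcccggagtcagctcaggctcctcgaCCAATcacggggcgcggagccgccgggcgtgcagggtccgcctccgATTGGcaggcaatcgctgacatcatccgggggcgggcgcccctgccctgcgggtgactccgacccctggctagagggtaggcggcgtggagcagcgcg
MSMO1: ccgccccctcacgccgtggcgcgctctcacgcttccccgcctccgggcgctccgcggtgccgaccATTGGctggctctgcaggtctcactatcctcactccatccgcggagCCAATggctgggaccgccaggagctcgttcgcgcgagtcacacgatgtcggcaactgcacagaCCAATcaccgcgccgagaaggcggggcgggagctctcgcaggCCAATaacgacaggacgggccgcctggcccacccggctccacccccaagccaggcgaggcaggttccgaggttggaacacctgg
INSIG1: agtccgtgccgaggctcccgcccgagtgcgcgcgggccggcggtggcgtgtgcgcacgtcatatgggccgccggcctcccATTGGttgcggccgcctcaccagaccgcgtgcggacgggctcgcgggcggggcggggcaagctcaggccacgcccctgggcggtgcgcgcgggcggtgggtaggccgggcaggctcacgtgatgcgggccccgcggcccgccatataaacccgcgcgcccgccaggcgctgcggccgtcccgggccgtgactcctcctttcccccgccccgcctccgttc
MVK: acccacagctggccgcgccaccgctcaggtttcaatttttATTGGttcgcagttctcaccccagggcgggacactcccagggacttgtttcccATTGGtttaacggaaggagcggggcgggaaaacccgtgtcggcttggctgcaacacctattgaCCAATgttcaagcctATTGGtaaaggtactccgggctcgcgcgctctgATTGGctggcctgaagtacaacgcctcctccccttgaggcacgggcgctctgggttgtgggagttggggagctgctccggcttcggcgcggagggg
SREBF2: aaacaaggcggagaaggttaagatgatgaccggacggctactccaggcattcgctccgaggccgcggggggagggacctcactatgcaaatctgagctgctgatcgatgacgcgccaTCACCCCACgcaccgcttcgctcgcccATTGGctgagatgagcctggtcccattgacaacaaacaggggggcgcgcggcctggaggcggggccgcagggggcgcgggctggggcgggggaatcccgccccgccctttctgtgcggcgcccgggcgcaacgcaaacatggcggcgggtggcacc

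The CCAAT box was commoner near enzyme genes than near all detected genes. It was present in 12 of 16 synthesis promoters (75%) and in 6 of 14 promoters of the other detected members (42.9%), against 35.7% of all 27305 promoters and 37.9% of the 8241 promoters of genes detected here. HMGCS1 and DHCR7 had 2 each, MSMO1 had 4, and INSIG1 had 1. MVK and NSDHL had 5 matches each, yet their log2 ratios were 0.31 and 0.66, so the members with the most matches were not those with the largest ratios. In NSDHL, 2 of the 5 matches overlap, 1 on each strand, in CCAATTGG. Over members, the median log2 ratio was 0.65 for the 18 with a box and 0.16 for the 12 without, as a description in which the enzyme genes make up most of the first set. IDI1 and SREBF1 were past 2-fold with no CCAAT in the window.

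The strict sterol core TCACNCCAC matched 1 of 30 member promoters, that of SREBF2, where it began 133 bases before the start, against 1.15% of all promoters. None of the 16 synthesis promoters held it, which says only that these letters are not in these windows. The GC box GGGCGG, bound by Sp1, was in 14 of 16 synthesis promoters (87.5%), against 70.7% of promoters of detected genes. All motifs were searched on both strands, and none of their matches in member promoters overlapped a match of another motif.

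Across the detected members, signals of the synthesis enzymes were higher in radiation-adapted cells. On their brightest probes, the listed genes of uptake, storage, export and proteolytic control were within 1.5-fold. A second detected probe of the protease gene MBTPS1 was 1.88-fold higher. Of 33 members, 29 had a log2 ratio above 0, against 46.6% of all detected genes. MVD and SOAT1 entered only through the array on which they were brighter, and SREBF2 likewise, so these counts lean on the filter for 3 members. Over the 30 members detected on both arrays, 27 were above 0, against 46.9% of such genes. By measured ratio, 8 members reached 2-fold in the upward direction, against 4.02% of all detected genes, and 0 in the downward direction, against 2.07%. At 1.5-fold, 15 members were higher and 0 lower, against 12.5% and 9.59% of all detected genes. The median log2 ratio was 0.46 over the members and -0.04 over all detected genes. Because the list was chosen with earlier results of these data known, these comparisons are a description and not a test.

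The shift was uneven within the list. For the 18 detected synthesis enzymes the median log2 ratio was 0.78, with 18 of 18 above 0 (17 of 17 among those detected on both arrays) and a range of 0.030 to 2.32. For the 15 other detected members it was 0.14, with 11 of 15 above 0 and a range of -0.28 to 1.22. Of these 15, SREBF1 and INSIG1 passed 1.5-fold upward and 0 passed it downward, against 12.5% and 9.59% of all detected genes. Both also passed 2-fold, against 4.02%. In 2567 genes with at least 2 detected probes, the SD of the difference between the ratios of the 2 brightest was 0.47. Of the members, 16, of which 14 were enzymes, lay further above 0 than that SD, against 16.5% of all detected genes, and 0 lay further below, against 14.8%. This SD holds measurement and isoform differences on 1 pair of arrays, not the spread between cultures.

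**Figure D1:**
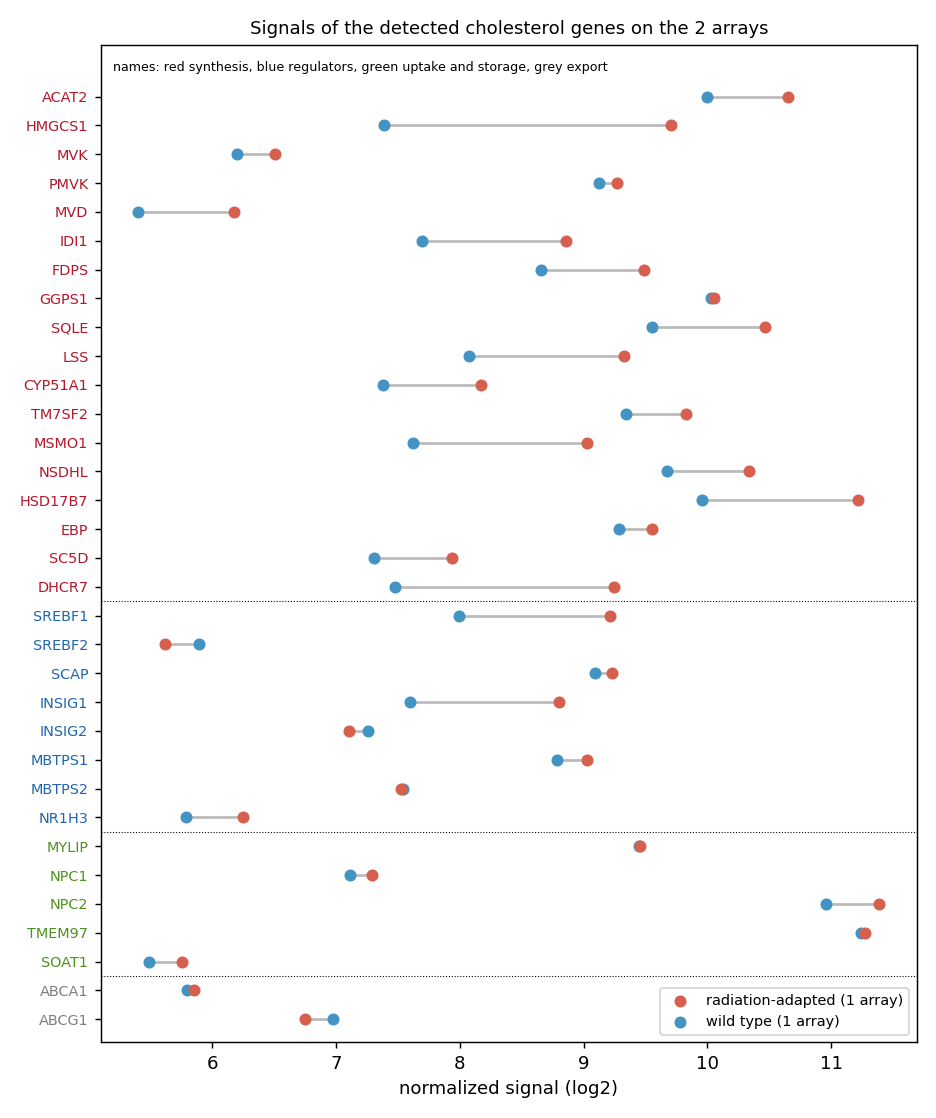
Normalized log2 signal (x axis) of the 33 detected members (rows) in radiation-adapted cells (red points) and wild type cells (blue points), 1 array each, with a grey line joining the 2 values of a gene. The gap is widest for HMGCS1 and DHCR7, and the points nearly coincide for GGPS1, MYLIP, TMEM97 and MBTPS2. MVD and SOAT1 were not detected in wild type cells and SREBF2 was not detected in radiation-adapted cells.

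The first steps, from acetyl-CoA to farnesyl diphosphate, had 7 detected enzymes, all above 0, with a median log2 ratio of 0.77. ACAT2, the thiolase that joins 2 acetyl-CoA molecules, had a signal of 1739 in radiation-adapted cells and 1126 in wild type cells, a log2 ratio of 0.65. Its dimmer probe had 172 in radiation-adapted cells and an undetected 136 in wild type cells, a measured log2 ratio of 1.03. HMGCS1, which adds the next acetyl-CoA to form the precursor of mevalonate, had 956 in radiation-adapted cells and 273 in wild type cells. Its normalized signal was 5.01-fold higher, the 18th highest ratio of the 10189 detected genes and the largest among the members.

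The kinases that follow differed less. MVK, which phosphorylates mevalonate, had 207 in radiation-adapted cells and 182 in wild type cells, with a log2 ratio of 0.31 at a dim signal. PMVK, which adds the next phosphate, had 736 in radiation-adapted cells and 662 in wild type cells, with a log2 ratio of 0.14. MVD, the decarboxylase that makes isopentenyl diphosphate, had 188 in radiation-adapted cells, and its 152 in wild type cells was not detected, so the gene is given as at least 1.54-fold higher. Bounds of this kind hold no allowance for measurement error. MVD passed the detection filter only through the array on which it was brighter.

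Isomerisation and condensation came next. IDI1, the isomerase of isopentenyl diphosphate, had 584 in radiation-adapted cells and 312 in wild type cells and was 2.24-fold higher. FDPS, which joins the units to farnesyl diphosphate, had 835 in radiation-adapted cells and 507 in wild type cells and was 1.78-fold higher. GGPS1 uses the same substrate but leads away from sterols, to the lipid that anchors small GTPases. It had 1190 in radiation-adapted cells and 1143 in wild type cells, a log2 ratio of 0.030, the smallest of the 18 enzymes. FDFT1, the branch-point enzyme toward squalene, was not analysed here.

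SQLE and LSS carry squalene to lanosterol, and both were higher. SQLE, which adds an oxygen to squalene, had 1536 in radiation-adapted cells and 856 in wild type cells on its brighter probe, a 1.88-fold difference. Its other detected probe had a log2 ratio of 0.79, against 0.91 for the brighter one. LSS, which folds the oxidised chain into the 4-ring lanosterol, had 766 in radiation-adapted cells and 375 in wild type cells and was 2.38-fold higher. Its further 2 probes were not detected on either array.

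Of the 8 enzymes that turn lanosterol into cholesterol, all had ratios above 0, with a median log2 ratio of 0.73, and 3 were at least 2-fold higher. Of all detected genes, 46.6% were above 0 and 4.02% at least 2-fold higher. CYP51A1, the cytochrome that starts the removal of a methyl group, had 409 in radiation-adapted cells and 273 in wild type cells, a log2 ratio of 0.79. TM7SF2, a sterol reductase, had 1030 in radiation-adapted cells and 752 in wild type cells, a log2 ratio of 0.49. MSMO1, which oxidises the paired methyl groups that are removed next, had 641 in radiation-adapted cells and 301 in wild type cells on its brightest probe and was 2.65-fold higher.

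MSMO1 is the member whose detected probes disagreed. The second probe, with 259 in radiation-adapted cells and 179 in wild type cells, had a log2 ratio of 1.01. The third, with 212 in radiation-adapted cells and 215 in wild type cells, had a log2 ratio of -0.17. The first and the third are assigned to the same transcript by the platform annotation, and which of them reports the gene was not tested. Across the 7 members with at least 2 detected probes, the probes of 6 had the same sign.

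NSDHL and HSD17B7 act with MSMO1 in removing those methyl groups. NSDHL, the dehydrogenase, had 1418 in radiation-adapted cells and 920 in wild type cells, a log2 ratio of 0.66. HSD17B7, the ketone reductase, had 2556 in radiation-adapted cells and 1095 in wild type cells and was 2.40-fold higher. HSD17B7 has a closely related pseudogene, HSD17B7P2, so its value is uncertain to the extent that the probe also binds that transcript. The pseudogene's own probe was not detected on either array.

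The last enzymes move and remove double bonds. EBP, the isomerase, had 870 in radiation-adapted cells and 727 in wild type cells, a log2 ratio of 0.27. SC5D, the desaturase, had 364 in radiation-adapted cells and 264 in wild type cells, a log2 ratio of 0.63. DHCR7, which makes cholesterol by the final reduction of one branch of the route, had 728 in radiation-adapted cells and 284 in wild type cells. It was 3.40-fold higher, the 65th highest ratio of all detected genes, and its other detected probe, with 583 against 264, was 2.93-fold higher. HMGCS1 near the start and DHCR7 at the end of the route thus had the largest ratios, and the enzymes with the smallest (GGPS1, PMVK, EBP and MVK) were spread over it.

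**Figure D2:**
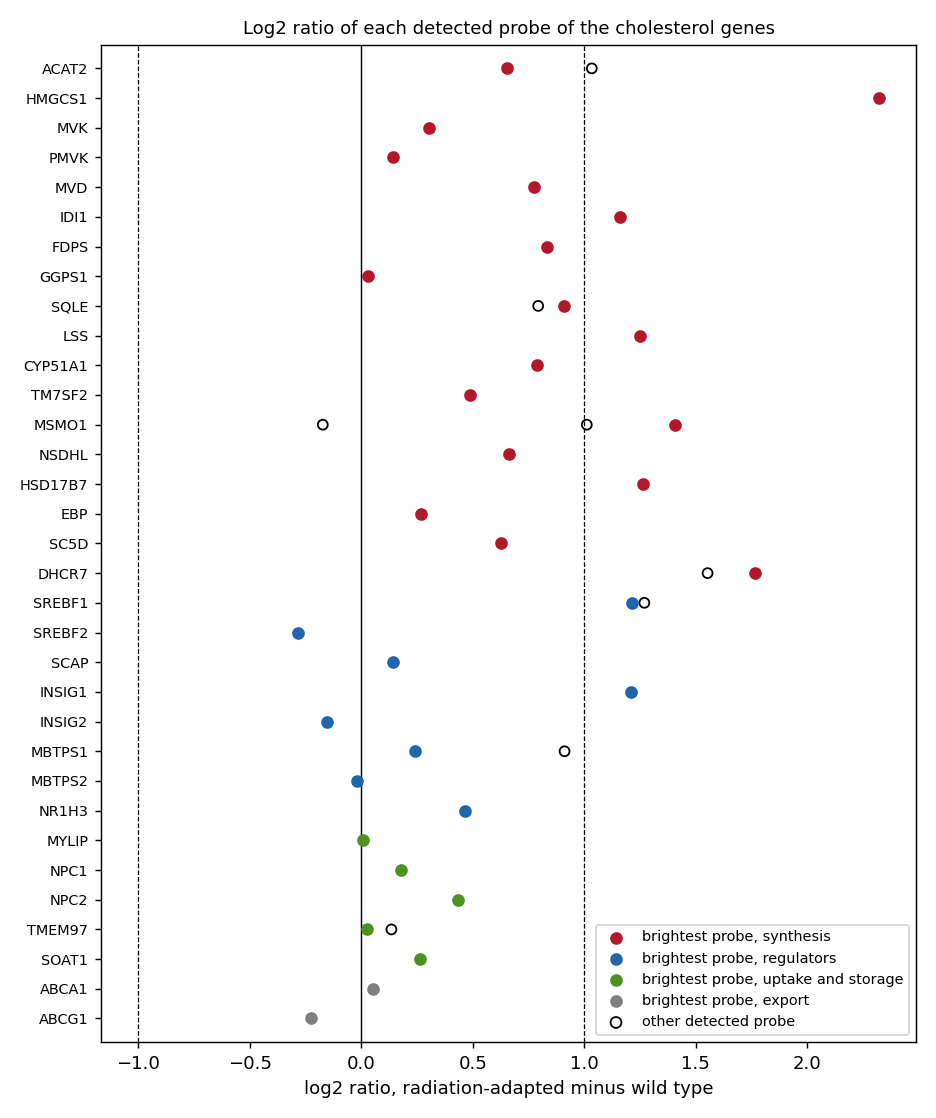
Log2 ratio, radiation-adapted minus wild type (x axis), of every detected probe of the 33 members (rows); filled points are the brightest probe of each gene, coloured by group, and open circles are other detected probes. Dashed lines mark 2-fold in each direction. Filled points of 8 genes lie beyond the right dashed line and none beyond the left one, and the open circle of MSMO1 at -0.17 lies across 0 from its filled point.

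Among the regulators, the SREBP genes had ratios on opposite sides of 0. SREBF1, the factor with the wider reach into fatty acid synthesis, had 712 in radiation-adapted cells and 360 in wild type cells and was 2.32-fold higher. A second detected probe of SREBF1, annotated to another transcript, had 318 in radiation-adapted cells and 191 in wild type cells and was 2.41-fold higher. SREBF2, the factor with the stronger hold on sterol enzymes, had 163 in radiation-adapted cells, which was not detected, and 169 in wild type cells. It is given as at least 1.18-fold lower, from 1 probe near the detection limit on both arrays, so its direction rests on little signal.

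The INSIG pair also differed from each other. INSIG1, the sterol-dependent anchor of SCAP and itself an SREBP target, had 566 in radiation-adapted cells and 298 in wild type cells and was 2.31-fold higher. INSIG2, which shares the anchoring role, had 255 in radiation-adapted cells and 259 in wild type cells, with a log2 ratio of -0.15. SCAP had 722 in radiation-adapted cells and 650 in wild type cells, a log2 ratio of 0.14.

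Neither Golgi protease differed by as much as the larger enzymes on its brightest probe. MBTPS1, which makes the first cut in the precursors, had 640 in radiation-adapted cells and 545 in wild type cells, a log2 ratio of 0.24. Its dimmer probe, with 228 in radiation-adapted cells and 168 in wild type cells, had a log2 ratio of 0.91, so the size of the MBTPS1 difference depends on the probe. MBTPS2, which makes the second cut, had 303 in radiation-adapted cells and 291 in wild type cells, a log2 ratio of -0.019, or 0.026 under median scaling. Its other probe, annotated to another transcript, was not detected on either array, so the MBTPS2 value rests on 1 probe. The liver X receptor gene NR1H3 had 191 in radiation-adapted cells and 165 in wild type cells, a log2 ratio of 0.46 at a dim signal, and NR1H2 was not analysed here.

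Listed genes of uptake, transport and storage had 5 detected members, with log2 ratios of 0.0063 to 0.43 and 0 at 1.5-fold. Among all detected genes 12.5% were 1.5-fold higher and 9.59% lower, so 0 of 5 shows little. These 5 include no lipoprotein receptor. Among receptor genes of the further lists below, VLDLR had a log2 ratio of -1.47, LRP1 one of 0.78 and LRP8 one of 0.44. MYLIP had 824 in radiation-adapted cells and 800 in wild type cells, a log2 ratio of 0.0063. NPC1, the membrane protein that passes cholesterol out of lysosomes, had 275 in radiation-adapted cells and 245 in wild type cells, a log2 ratio of 0.18. NPC2, its soluble partner, had 2852 in radiation-adapted cells and 2055 in wild type cells, with a log2 ratio of 0.43, the largest of the group.

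TMEM97, a membrane protein that binds NPC1, had 2643 in radiation-adapted cells and 2474 in wild type cells, with a log2 ratio of 0.028, and its second probe had 0.14. SOAT1, which esterifies cholesterol for storage, had 168 in radiation-adapted cells, and its 155 in wild type cells was not detected, which gives at least 1.15-fold. STARD4, a soluble sterol carrier, was not detected on either array, with 127 in radiation-adapted cells and 128 in wild type cells.

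The export transporters stayed within 1.5-fold in both directions. ABCA1, which loads cholesterol onto lipid-poor apolipoproteins, had 172 in radiation-adapted cells and 165 in wild type cells, a log2 ratio of 0.051 at a dim signal. ABCG1, which passes cholesterol to mature lipoprotein particles, had 224 in radiation-adapted cells and 232 in wild type cells, a log2 ratio of -0.23. Of its 5 probes, 1 was detected. ABCA1, ABCG1, MYLIP and SREBF1 are all known liver X receptor targets. Of these 4, SREBF1 was past 1.5-fold upward, against 12.5% of all detected genes, and the part of the receptors was not tested.

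**Figure D3:**
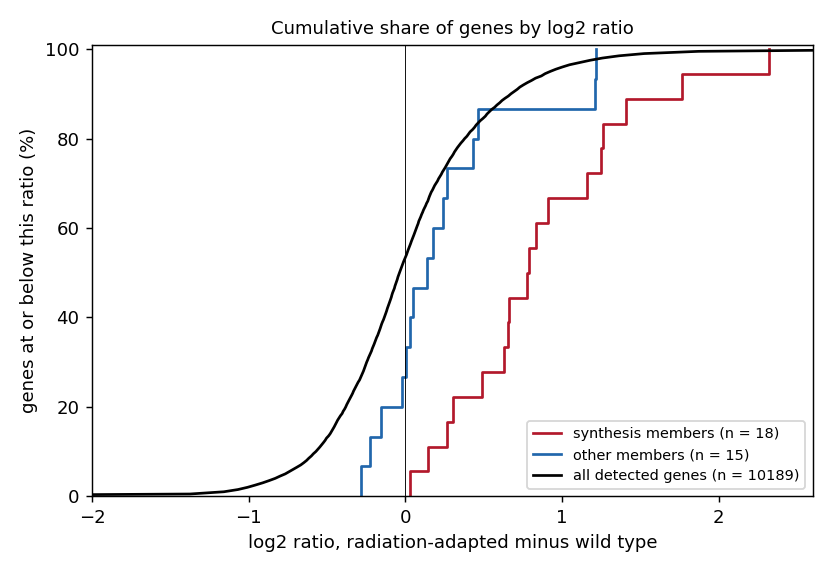
Cumulative share of genes (y axis, percent) at or below each log2 ratio, radiation-adapted minus wild type (x axis, cropped at both ends), for 18 synthesis members (red), 15 other members (blue) and 10189 detected genes (black). The red curve lies to the right of the black one, with medians of 0.78 and -0.04, and the blue curve lies nearer to the black one, with a median of 0.14.

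Position on the chromosome was compared with the members' ratios, since neighbouring genes can differ as a block where 2 lines differ in chromosome number or structure. For each member, the median was taken over up to 25 protein-coding genes on either side that were detected on both arrays, in RefSeq gene order, leaving out other members. These neighbour medians ran from -0.25 to 0.47. Of 33 members, 25 lay above their own neighbour median, and the median log2 difference over all 33 was 0.45. The share of all detected genes above their own neighbours was not computed, so this count has no background beside it. MVD, SOAT1 and SREBF2 are among the 33 though detected on 1 array only. HMGCS1 exceeded its neighbours by 2.51, DHCR7 by 1.71 and MSMO1 by 1.66.

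The 5 members on chromosome 1 were FDPS, PMVK, HSD17B7, SOAT1 and GGPS1. HSD17B7 had the highest neighbour median of all members, 0.47 with 43 of 50 neighbours above 0, and exceeded it by 0.80. FDPS had a neighbour median of 0.28 and exceeded it by 0.55. PMVK, at 0.14, and SOAT1, at a measured log2 ratio of 0.26, were below their neighbour medians of 0.31 and 0.44. The part of these higher neighbourhoods in the values of HSD17B7 and FDPS was not tested. Without the 5 members, a choice made after seeing the data, 7 of 28 members were at least 2-fold higher.

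**Figure D4:**
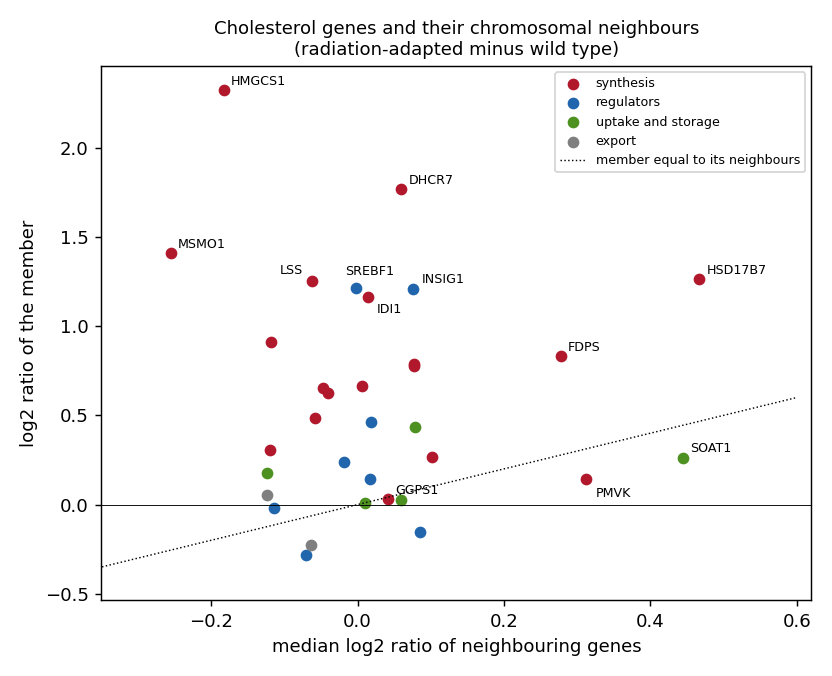
Log2 ratio of each of the 33 detected members (y axis) against the median log2 ratio of its chromosomal neighbours (x axis), both radiation-adapted minus wild type, coloured by group; the dotted line marks equality. Named points are members past 2-fold or on chromosome 1. HMGCS1, DHCR7 and MSMO1 lie far above the line, and PMVK and SOAT1 lie below it.

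Further genes of the pathway, taken as lists, had medians nearer to that of all detected genes than the enzymes had. Of 12 detected fatty acid genes linked to SREBP, 9 were above 0, against 46.6% of all detected genes, with a median log2 ratio of 0.23. In this list 1 gene was past 2-fold upward and 0 downward, against 4.02% and 2.07% of all detected genes. The 1 gene was the desaturase gene FADS1, with 3382 in radiation-adapted cells and 1689 in wild type cells, a log2 ratio of 1.02. At 1.5-fold, 5 genes were higher and 0 lower, against 12.5% and 9.59% of all detected genes. The others past 1.5-fold, named after their values were seen, were SCD (0.95), ACSS2 (0.79), ACLY (0.77) and ACACA (0.65). All of these act in making or desaturating fatty acids. The rest of the detected list was within 1.5-fold: FASN (0.26), MID1IP1 (0.20), FADS2 (0.034), ELOVL5 (0.014), ELOVL6 (-0.016), ME1 (-0.23) and LPIN1 (-0.23).

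Enzymes that divert or consume the isoprenoid intermediates had a median below 0, as all detected genes had (-0.04). Of 15 detected genes of dolichol, ubiquinone and protein prenylation, 5 were above 0, against 46.6% of all detected genes. Their median log2 ratio was -0.16. At 2-fold there were 0 in either direction, against 4.02% of all detected genes upward and 2.07% downward. The farthest from 0 were NUS1, a subunit of the dolichol-making enzyme, at -0.76, and ZMPSTE24, a protease of prenylated proteins, at -0.55. Of 6 detected further sterol enzymes and electron donors, 2 were above 0, against the same 46.6%. POR, which supplies electrons to CYP51A1 and SQLE, was at 0.68, and LBR, which shares the reductase activity of TM7SF2, was at -0.62.

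The transport of the SREBP precursors uses general secretory coat genes, which lay near 0. Of 14 detected genes of that transport and of SREBP turnover, 6 were above 0, against 46.6% of all detected genes. Their median was -0.072, with 0 at 1.5-fold, against 12.5% of all detected genes upward and 9.59% downward. The farthest were SEC24C (0.51) and SAR1A (0.42), both coat components. Among 15 detected genes of sterol transport and lipoprotein handling the median was 0.016. VLDLR, a lipoprotein receptor, was the 1 gene at 2-fold, in the downward direction, against 2.07% of all detected genes. It had 168 in radiation-adapted cells and 255 in wild type cells, a log2 ratio of -1.47. Of 4 detected oxysterol enzymes and liver X receptor partners, 2 were above 0, and the farthest were the receptor partner RXRA (0.66) and SMPDL3A (-0.45). The reference gene ACTB had a log2 ratio of -0.067, and GAPDH one of -0.094.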

How the data were processed

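Gene expression was measured on 2 Illumina arrays, 1 of radiation-adapted and 1 of wild type SK-ES1 cells, grouped by title. Per the labels' protocols, RNA was extracted with Trizol and labelled with an Illumina TotalPrep kit (scanner and summarising software: not stated in the labels or headers). The authors deposited, per the file headers, an average bead signal intensity per probe, not normalized, and a detection p-value. The authors' second deposited table, processed intensity, was judged from its values to be linear, background-subtracted and quantile-normalized, and served only as an alternative; direction and scale were checked against the raw signals.

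Raw signals were processed with neqc of limma 3.58.1 in R 4.3.3 (normexp background from the detection p-values, offset of 16, quantile normalization, log2), then in Python 3.11.15 (matplotlib 3.10.9, SciPy 1.17.1, NumPy 2.4.6 and pandas 2.3.3). The offset lowers the folds of dim genes. Probes were named from GEO's platform annotation, with symbols updated by gene ID through RefSeq (GRCh38.p14): of 47323 probes, 30113 had 1 symbol, 8 several and 17202 none here. The brightest probe stood for a gene. Where 1 array did not detect a gene, its fold is a bound against the higher of its own signal there and the lowest detected signal of that array. With 1 array a group no test was made, and the number of arrays limits the precision.

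Members, gene lists and motifs were chosen with earlier results of these data known. All detected members were named. From the further pathway lists, genes at 2-fold or more, or else the 2 farthest from 0, were named. SCD, ACSS2, ACLY, ACACA, the rest of the detected fatty acid list, LRP1, LRP8 and the fibroblast markers are exceptions, picked with their values known. The steps were tested on simulated data. Promoters were found for 30 of the 33 detected members.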

Additional observations from a re-analysis of the deposited data

How the results depend on the processing

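Alternatives to the processing changed sizes more than directions. Of 132 values of single members under 4 other normalizations (no background correction, median scaling, an offset of 50 and the authors' processed values), 130 kept their sign. The exceptions, both under median scaling in place of quantiles, were MBTPS2 (0.026) and MYLIP (-0.0068), each within 0.05 of 0. Without background correction, 4 members were at least 2-fold higher, against 1.06% of all detected genes, and the median log2 ratio was 0.26 over the members, 0.60 over the enzymes and 0.081 over the others, since the uncorrected background compresses every ratio. HMGCS1 was then at 1.77 and MVD at 0.26. An offset of 50 gave a median of 0.66 for the enzymes. A size rule of 1.5-fold gave 15 higher members. The authors' processed values, median scaling, detection on both arrays, detection p-values under 0.05 and the median of a gene's probes gave 8 members at least 2-fold higher each, as did genes detected on 1 array at their bound, an alternative chosen after seeing the data, and no alternative gave a member at least 2-fold lower. Dim signals limit MVK, MVD, SREBF2, NR1H3, SOAT1 and ABCA1, and the absence of replicates limits every value.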
